A study of Mus musculus with 54 samples.

Results

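S54F myogenic progenitors were compared with wildtype progenitors after 24 h in differentiation medium, called day 1. The comparison is the deposited table that sets these groups side by side, and all of its genes were used. It rests on 6 of the 54 samples of the series, with 3 labelled replicates in each group, and lists 17537 genes. Both groups are H2K mouse myogenic progenitors, conditionally immortalized muscle precursor cells that are kept cycling with γ-interferon in the proliferation medium. Wildtype progenitors carried their own emerin. S54F progenitors were EMD-/y progenitors, which lack emerin, transduced with a lentivirus that carries the S54F emerin mutant of Emery-Dreifuss muscular dystrophy (EDMD). The S54F line is 1 transduced line selected with puromycin, and the labels keep puromycin on the mutant lines also during differentiation. Wildtype progenitors were plated at 232000 cells per well and mutant lines at 297000. Genotype, transduction, puromycin and plating density therefore cannot be told apart in this comparison. Day 0 progenitors were taken at the switch to differentiation medium and day 2 progenitors 48 h after it.

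Emerin is a LEM-domain protein of the inner nuclear membrane that binds lamins, the chromatin protein BAF and the histone deacetylase HDAC3. Myogenic progenitors that receive differentiation medium withdraw from the cell cycle, express myogenin, fuse, and switch on the genes of the contractile apparatus in sequence. Day 1 falls inside that switch. The tables of days 0 and 2 give the values of each gene before and after it.

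The table holds 1 value per gene and group, a normalized count in the authors' scale, and no value per sample. No spread between replicates, test, or interval could be computed, and differences are given as sizes without a replicate check. The labels give 2 biological replicates with 3 technical replicates each for the study, and do not say which kind the labelled replicates of a group are. The 2 columns summed to 19.03 M for wildtype and 18.63 M for S54F, and the 10 highest genes took 6.54% and 6.46% of these sums. Folds are log2 of (S54F + 1)/(wildtype + 1), so that a negative value is lower in S54F, and they understate the difference of genes with low values. Genes with an average of at least 10 over both groups were compared, which left 13216 genes. Their median log2 fold was -0.01, and 76.5% of them differed by less than 1.5-fold. The levels are of pooled RNA, so fewer cells of a kind and less RNA per cell cannot be told apart.

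Emd, the targeted gene (GRCm38 chromosome X, 74254674 to 74261563), had a value of 1809 in wildtype and 2.07 in S54F progenitors. It was the gene with the largest fold below wildtype among named genes with an average of at least 100, at -9.20 on the log2 scale. EMD-/y progenitors, in a table of their own, had 2.36. The table has no row for the transduced S54F copy, so its transcript was not checked here. No tested gene had a value under 1.08 in S54F or under 1.16 in wildtype progenitors, and folds against such low values depend on how the authors' scale treats them.

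At day 1, 678 genes were at least 2-fold higher in S54F than in wildtype progenitors, which is 5.13% of the genes compared. Another 792 genes were at least 2-fold lower, which is 5.99%. At 1.5-fold the counts were 1509 higher, or 11.4%, and 1599 lower, or 12.1%. Of the 1470 genes past 2-fold, 309 were genes predicted from the reads by the sequencing provider that have no symbol, although such genes were 5.77% of those compared. Without them, 552 genes were higher and 609 lower. Past 8-fold there were 118 higher genes, 54 of them predicted, and 132 lower genes, 78 of them predicted.

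**Figure D1:**
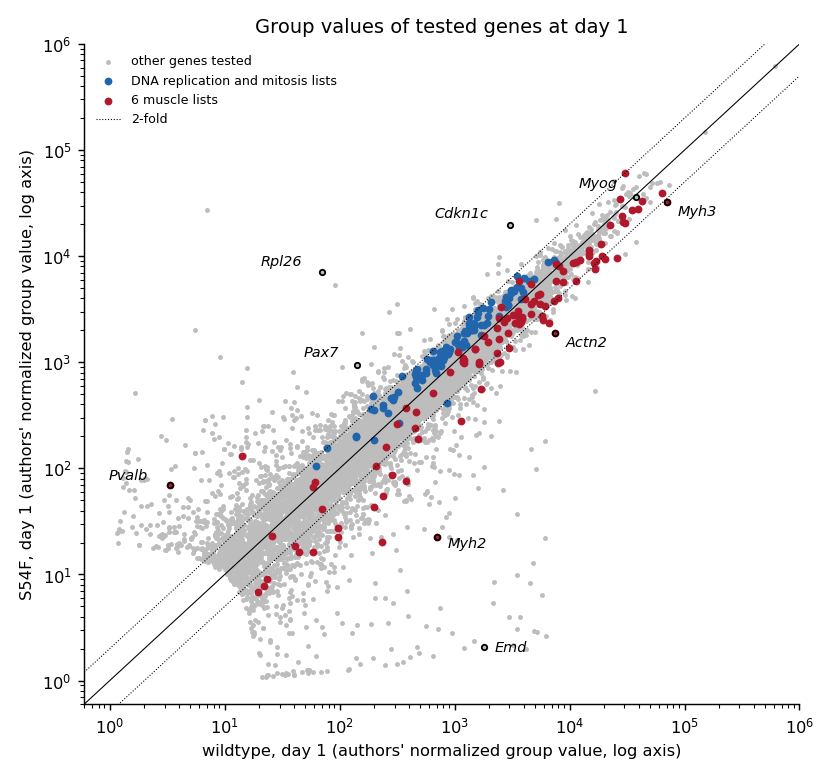
Each point is a tested gene, with its authors' normalized group value in wildtype (x) and S54F (y) progenitors at day 1, both on log axes. Dotted lines mark 2-fold. Most points of the 6 muscle lists (red) lie below the solid line of equal values, most of the DNA replication and mitosis lists (blue) lie above it, and Emd lies far below it at 1809 and 2.07.

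Genes of the contractile apparatus were lower in S54F progenitors at day 1. Over 6 muscle lists (sarcomeric myosins, thin filament, Z-disc with titin and M-line, excitation-contraction coupling, neuromuscular synapse and muscle energy genes) 109 genes were compared and 96 were below wildtype. Of these 109, 28 were at least 2-fold lower, or 25.7% beside the 5.99% of all genes, and 3 were at least 2-fold higher. Their median log2 fold was -0.55.

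Sarcomeric myosins had the lowest median of the 40 lists that are no cell type markers, at -1.11. Of their 12 genes 7 were at least 2-fold lower, or 58.3% beside 5.99% of all genes. Embryonic myosin heavy chain, Myh3, the heavy chain of newly formed muscle, was 70227 in wildtype and 32606 in S54F progenitors, a log2 fold of -1.11. Perinatal myosin Myh8 stood at 8007 and 4067, and the embryonic light chain Myl4 at 16484 and 7617. Adult fast myosins went in different directions. Myh2, the IIa heavy chain, was 703 in wildtype and 22.6 in S54F progenitors (-4.90), Myh4, the IIb heavy chain, was 97.1 and 22.3, and Myh1, the IIx heavy chain, was 4663 and 5461. Slow myosin Myh7 was within 1.5-fold of wildtype, at 1490 and 1343.

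Among 34 Z-disc, titin and M-line genes 8 were at least 2-fold lower and none higher, with a median of -0.57. The lower share was 23.5%, beside 5.99% of all genes. Actn2, the α-actinin that cross-links thin filaments at the Z-disc, was 7469 in wildtype and 1902 in S54F progenitors, or 3.93-fold lower. Mybpc1, slow myosin-binding protein C, was 1139 and 279. Tcap, which caps titin at the Z-disc, was 233 and 20.0, and Myom2, which cross-links myosin at the M-line, was 5806 and 2734. Titin itself, Ttn, differed less, at 30153 and 20590 (-0.55).

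Of 18 thin filament genes 3 were lower and 2 higher past 2-fold. The lower share was 16.7%, and of all genes 5.99% were lower and 5.13% higher. Nebulin, Neb, which spans the thin filament, was 25840 in wildtype and 9666 in S54F progenitors. Tmod1, which caps its pointed end, was 1690 and 562, and the cardiac troponin T gene Tnnt2, which embryonic muscle also uses, was 20352 and 9323. The actins split. Skeletal actin Acta1 was 63067 and 39144 (-0.69), whereas cardiac actin Actc1, the main sarcomeric actin of early muscle, was 30411 and 61015, past 2-fold higher. Xirp2, an actin-binding repeat protein of muscle, was also higher, at 14.0 and 132.

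Excitation-contraction coupling links the membrane potential to calcium release. Of its 21 genes 6 were at least 2-fold lower, or 28.6% beside 5.99% of all genes. Scn4a, the muscle sodium channel, was 379 in wildtype and 76.5 in S54F progenitors. Cacna1s, the voltage sensor, was 2458 and 1003, and Ryr1, the calcium release channel that it opens, was 5873 and 2522. Casq1, which stores calcium in the reticulum, was 200 and 43.6. The calcium pump Atp2a1 stayed within 1.5-fold, at 11292 and 8739, and the calcium buffer Pvalb was far higher in S54F progenitors, at 3.34 and 69.0. At the neuromuscular synapse all 10 genes were below wildtype and 3 were at least 2-fold lower (30.0%). They were the acetylcholinesterase anchor Colq (237 and 54.8), the agrin receptor Lrp4 (6563 and 2327) and the acetylcholinesterase gene Ache (23.1 and 9.06), while the receptor subunit Chrna1 was within 1.5-fold at 22320 and 19535. Of 14 muscle energy genes 13 were below wildtype but only Cox7a1 was past 2-fold, or 7.14%, near the 5.99% of all genes. Muscle creatine kinase Ckm was 1937 and 1554.

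**Figure D2:**
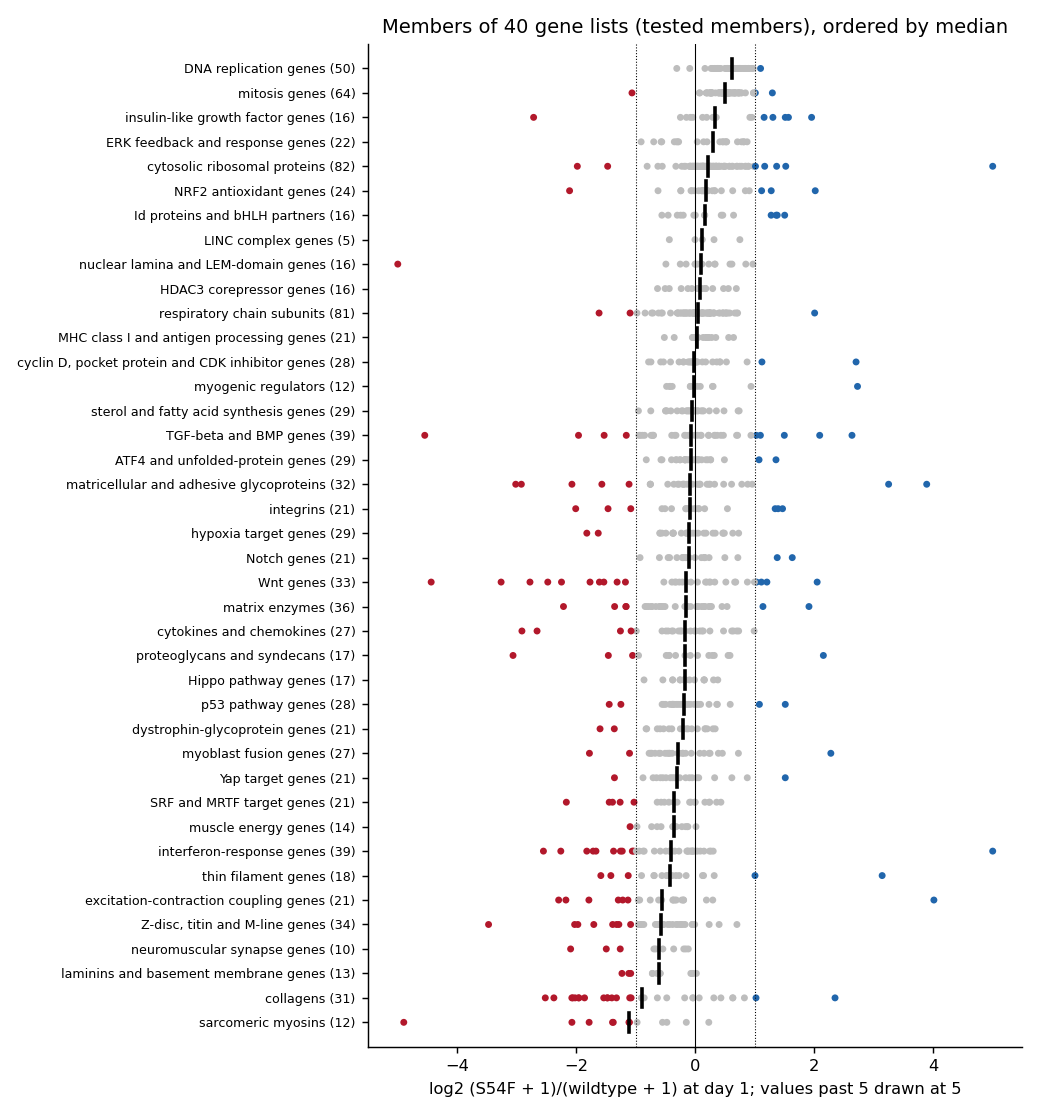
Each row is a gene list, with the number of tested members in parentheses, and each point is a member's log2 fold of S54F over wildtype at day 1; red points are at least 2-fold lower, blue points at least 2-fold higher, and the black bar is the list's median. Sarcomeric myosins (-1.11) and collagens (-0.90) have the lowest medians and DNA replication genes (0.62) the highest.

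The muscle lists differed from wildtype at day 1 and much less before and after it. In the tables of days 0 and 2, which are made from other samples, the same 109 genes had a median log2 fold of 0.20 at day 0 and -0.08 at day 2. At least 2-fold lower genes numbered 2 at day 0, 28 at day 1 and 8 at day 2, and at least 2-fold higher genes 10, 3 and 4. At day 0, 71 of the 109 were above wildtype. For all genes the shares past 2-fold were similar on the 3 days: 5.26% higher and 5.69% lower at day 0, and 5.43% higher and 4.4% lower at day 2. Myh3 had log2 folds of 0.12, -1.11 and -0.28 on days 0, 1 and 2. Actn2 had -0.20, -1.97 and -0.35, and Cacna1s had 0.01, -1.29 and -0.08. Neb had 0.10, -1.42 and -0.64, and so was still below wildtype at day 2. Myh3, Actn2 and Cacna1s are in the set of genes lower at day 1 only, given below and defined by such a course.

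**Figure D3:**
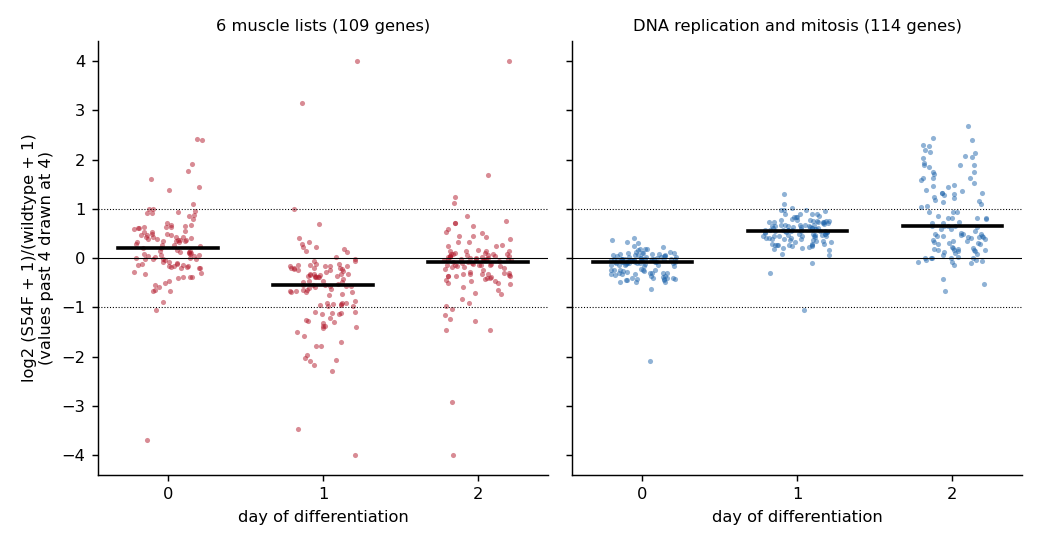
Each point is a gene's log2 fold of S54F over wildtype on the day given on the x axis; bars are medians, dotted lines mark 2-fold, and values past 4 are drawn at 4. The 109 muscle genes (left) have medians of 0.20, -0.55 and -0.08, and the 114 DNA replication and mitosis genes (right) have -0.07, 0.55 and 0.65.

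The comparisons of consecutive days within a line share samples with the tables above, so their steps restate the same differences as changes over time and are no separate support. In wildtype progenitors the 109 muscle genes were higher at day 1 than at day 0 by a median of 2.18 on the log2 scale, and 94 of them by at least 2-fold. In S54F progenitors the median was 1.19 and 63 genes passed 2-fold. From day 1 to day 2 the order was the opposite, with a median of 1.55 in wildtype and 2.11 in S54F progenitors. For sarcomeric myosins the first step was 2.54 in wildtype and 0.93 in S54F progenitors, and the second 2.19 and 2.94. Actn2 was 66.6, 393 and 1751 ppm (parts per 1000000 of the column sum) in wildtype on days 0, 1 and 2. In S54F progenitors it was 59.0, 102 and 1337. Mybpc1 went from 8.33 to 59.9 and 338 ppm in wildtype, and from 9.02 to 15.0 and 256 in S54F progenitors. For both genes the lines were near each other at day 0, apart at day 1, and nearer again at day 2. Both belong to the set of genes lower at day 1 only, given below, which is defined by that course. They are therefore no separate support for it.

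**Figure D4:**
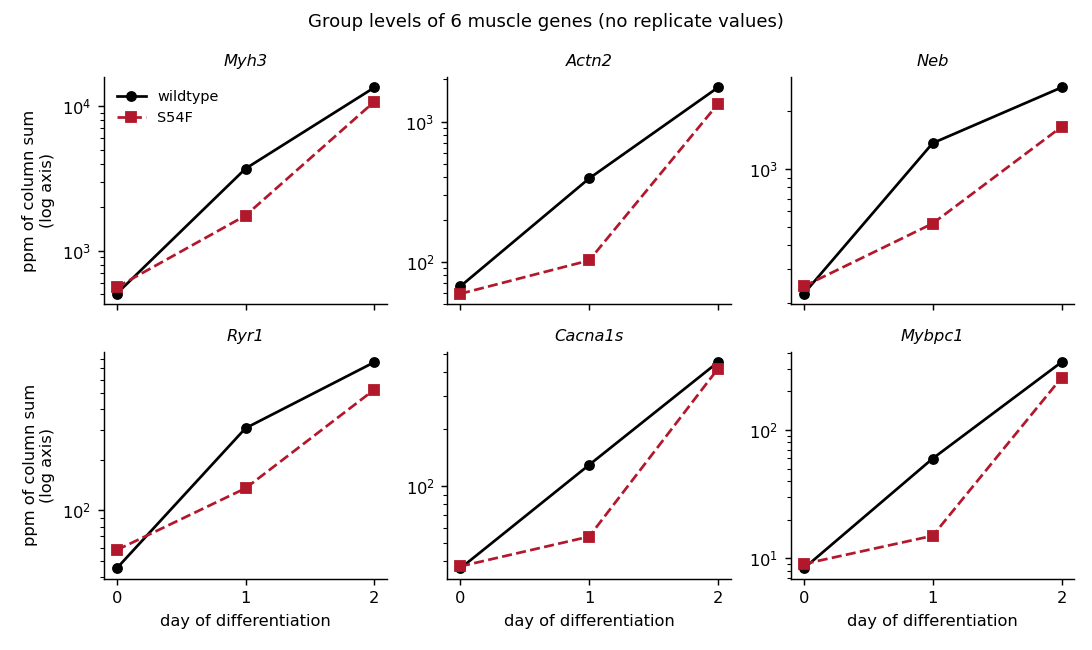
Group levels of 6 muscle genes on days 0, 1 and 2, in ppm of the column sum on log axes, in wildtype (black circles) and S54F (red squares) progenitors; each point is 1 group value without replicates. Between days 0 and 1 Actn2 goes from 66.6 to 393 in wildtype and from 59.0 to 102 in S54F progenitors, and the lines are closer at days 0 and 2. All of these genes but Neb are in the set of genes lower at day 1 only, which such a course defines.

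Genes that were at least 2-fold lower at day 1 and within 1.5-fold of wildtype at both other days numbered 87, of 786 lower genes listed on all days, or 11.1%. This set was defined after the values were seen. The same count was 97 of 743 for day 0 and 60 of 570 for day 2, so the number alone does not set day 1 apart. Of the 87 genes, 13 were members of the muscle lists, which hold 109 of the 13216 genes compared. Among them were Scn4a, Mybpc1, Actn2, Sypl2, Hspb7, Cacna1s, Ryr1, Hrc, Tnnt2, Myl4, Myh3 and Myom2. They were 13 of the 28 muscle genes at least 2-fold lower at day 1, and the rest of the 28 did not meet the limit on both other days. Other muscle genes among the 87 were Mypn, a Z-disc binding partner of α-actinin (1121 and 401), Cmya5, a costamere protein (222 and 95.3), and Ano5, a muscle membrane repair protein (3245 and 1385). The set of genes higher at day 1 only had 38 members of 674, or 5.64%, and none of the muscle lists. The same count was 84 of 677 for day 0 and 116 of 701 for day 2. It held Chek1, the DNA replication checkpoint kinase (201 and 419), and Gsta4, a glutathione transferase (89.2 and 218).

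E-boxes, the motif CANNTG bound by MyoD, myogenin and their partners, lie in many muscle promoters, and CAGCTG is the form these factors favour. The promoters of 3 of the lower genes that hold CAGCTG are shown because Mybpc1, Cacna1s and Tnnt2 were lower at day 1 only. Each runs from 250 bases before to 50 bases after the RefSeq start site in GRCm38.p6, 5′ to 3′, with CAGCTG in capitals. The motif reads the same on both strands, and every CAGCTG is also a CANNTG.
Mybpc1 (chr10:88605103-88605402, minus strand): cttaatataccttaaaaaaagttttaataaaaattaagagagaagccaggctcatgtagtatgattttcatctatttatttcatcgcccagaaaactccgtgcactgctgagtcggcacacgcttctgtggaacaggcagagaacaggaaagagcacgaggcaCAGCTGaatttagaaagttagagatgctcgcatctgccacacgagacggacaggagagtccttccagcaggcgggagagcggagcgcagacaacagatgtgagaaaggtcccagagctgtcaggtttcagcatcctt
Cacna1s (chr1:136052561-136052860, plus strand): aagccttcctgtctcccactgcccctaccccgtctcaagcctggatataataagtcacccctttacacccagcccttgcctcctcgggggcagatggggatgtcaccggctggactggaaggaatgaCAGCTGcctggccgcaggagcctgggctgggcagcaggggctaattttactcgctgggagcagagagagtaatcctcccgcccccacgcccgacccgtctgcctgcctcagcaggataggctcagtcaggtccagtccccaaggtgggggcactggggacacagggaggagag
Tnnt2 (chr1:135836084-135836383, plus strand): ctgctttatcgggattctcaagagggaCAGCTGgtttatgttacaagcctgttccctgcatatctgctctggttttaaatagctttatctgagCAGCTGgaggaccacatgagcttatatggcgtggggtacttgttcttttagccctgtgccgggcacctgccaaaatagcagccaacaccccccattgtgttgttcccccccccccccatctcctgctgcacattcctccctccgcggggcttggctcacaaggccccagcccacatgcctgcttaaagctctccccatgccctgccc
CAGCTG begins at position -87 from the start site in Mybpc1, at -123 in Cacna1s, and at -223 and -157 in the Tnnt2 window shown. Tnnt2 has a second RefSeq start site, whose window (chr1:135836739-135837038) holds none of CAGCTG, the MEF2 consensus or the CArG box. Of the 28 muscle genes at least 2-fold lower, 21 had a promoter in the RefSeq table, and CAGCTG was in 9 of their 24 promoters, or 37.5%. Among all 82 tested muscle genes with a promoter it was in 44 of 104, or 42.3%, and among all 32851 promoters in 16.3%. CANNTG was in 79.2%, 83.7% and 72.3% of the same promoters. The MEF2 consensus was in 1 of the 24, in 15 of the 104, and in 1.86% of all promoters. Among the 12865 promoters of all tested genes, CAGCTG was in 15.9%, CANNTG in 63.7% and the MEF2 consensus in 1.22%. The 24 are part of the 104, and no test of these shares was made. The Myh3, Actn2, Ryr1 and Scn4a windows hold none of CAGCTG, the MEF2 consensus or the CArG box.

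Of 12 myogenic regulators 1 was past 2-fold higher and none lower, beside 5.13% higher and 5.99% lower of all genes. Their median was -0.02. Myod1, the determination factor, was 17738 in wildtype and 18165 in S54F progenitors, and Myog, myogenin, was 37899 and 35858. Mef2c, which acts with them, was 4119 and 3068, and Mymk, the fusion protein myomaker, was 17032 and 13018. Myogenin was also near wildtype on the other days, with log2 folds of -0.02 at day 0 and -0.13 at day 2. The progenitor factor Pax7 was past 2-fold higher, at 142 and 949, and its log2 folds on days 0, 1 and 2 were 1.16, 2.73 and 2.97. Myf5 was 234 and 449. Of 16 genes of Id proteins and bHLH partners, 4 were at least 2-fold higher, beside 5.13% of all genes. They were Id2, an inhibitor of bHLH factors (391 and 1112), Id4 (12.7 and 32.2), Hey1, a Notch target repressor (120 and 312), and Twist2 (78.5 and 203). Id1 and Id3 were within 1.5-fold at day 1 and were higher by 1.49 and 1.46 at day 2. In the fusion list, Adam12 and Dysf were lower (1453 and 423, 2310 and 1074) and Elmo1 was higher (20.5 and 104).

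Cell cycle genes were higher in S54F progenitors at day 1, by less than 2-fold for nearly all of them. Of 50 DNA replication genes 48 were above wildtype with a median of 0.62, and of 64 mitosis genes 63 were above it with a median of 0.50, beside -0.01 for all genes. Past 2-fold were Cdc6, which loads the replicative helicase (347 and 745), Mybl2, a cell cycle transcription factor (196 and 483), and the checkpoint kinase gene Bub1b (1333 and 2685). The sliding clamp gene Pcna was 3488 and 6532, Mcm3 of the helicase was 1770 and 3277, Ccna2 was 2968 and 4044, and Mki67 was 4419 and 5864. Pttg1, securin, was alone in being past 2-fold lower, at 856 and 409. Its log2 folds were -2.08, -1.06 and 2.04 on days 0, 1 and 2. At day 0 the 114 genes had a median of -0.07, and at day 2 of 0.65 with 42 genes past 2-fold higher. Within the lines, they were lower at day 1 than at day 0 by a median of -0.83 in wildtype and -0.26 in S54F progenitors, and lower at day 2 than at day 1 by -2.96 and -2.99.

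Cyclins and inhibitors did not follow 1 direction. Ccne2, a cyclin of the start of DNA replication, was 549 in wildtype and 1197 in S54F progenitors, and Ccnd1, which drives the G1 phase, was 3146 and 5758. Cdkn1a, the p21 inhibitor that marks cell cycle exit in muscle, was 43836 and 38229. The p57 inhibitor Cdkn1c was 3021 and 19682, or 6.51-fold higher, and it was also higher at days 0 and 2, by 3.42 and 2.84 on the log2 scale. Rb1, the pocket protein required for exit, was 10175 and 7628.

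Collagens held the most genes at least 2-fold lower of any list by count, though not by share (sarcomeric myosins, 58.3%). Of 31 collagens 15 were at least 2-fold lower, or 48.4% beside 5.99% of all genes, and the median was -0.90. Fibrillar collagen Col1a1 was 9116 in wildtype and 4320 in S54F progenitors, and the basement membrane chains Col4a1 and Col4a5 were 11121 and 3995, and 650 and 112. Col3a1 was 24006 and 23336, and the microfibrillar chain Col6a3 was higher, at 407 and 2079. Col1a1 had log2 folds of -0.06 at day 0 and 0.69 at day 2, whereas Col4a5 and Col6a3 kept their direction past 2-fold on all 3 days. Of 13 laminins and basement membrane genes 12 were below wildtype and 3 past 2-fold lower (23.1%), among them nidogen-2, Nid2 (17267 and 7960), and Lamb2 (3337 and 1573). Adhesive glycoproteins split, with Efemp1 (1094 and 134), Postn (490 and 116) and Thbs2 (1897 and 639) lower, Fbn2 (1.24 and 32.2) and Reln (9.01 and 94.2) higher, and fibronectin, Fn1, at 25285 and 25869. Of 21 SRF and MRTF targets, which respond to actin dynamics, 5 were at least 2-fold lower (23.8%), among them Actg2 (693 and 154) and Tagln (4598 and 1916).

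Growth factor pathways held single large differences. Of 16 insulin-like growth factor genes 5 were past 2-fold higher, beside 5.13% of all genes, among them the binding proteins Igfbp5 (7637 and 22625), Igfbp3 (1439 and 4109) and Igfbp4 (215 and 836). Igfbp7 was lower (1806 and 274), and the ligand Igf2 was 49631 and 44767. Of 33 Wnt genes 10 were at least 2-fold lower and 4 higher, beside 5.99% and 5.13% of all genes. Among the ligands, Wnt10a was lower (202 and 8.37) and Wnt5a (293 and 676) and Wnt7b (22.96 and 98.2) were higher. The secreted modulator Sfrp2 (558 and 57.2) and the feedback gene Axin2 (111 and 19.1) were lower. In the TGF-β and BMP list Bmp4 was lower (62.1 and 1.70), as was follistatin, Fst (3951 and 1769). The BMP antagonist Grem1 was higher (156 and 669), and Bmp2 was 5.89 and 41.8. None of 17 Hippo and 22 ERK genes was past 2-fold, beside 5.13% higher and 5.99% lower of all genes. In the ERK list 14 genes were above wildtype, with a median of 0.31. At 1.5-fold 5 ERK genes were higher and 2 lower, beside 11.4% and 12.1% of all genes. Yap1 was 2508 and 2791, and Wwtr1, which encodes Taz, was 5069 and 3893. Of 21 Yap target genes 1 was lower (Ccdc80) and 1 higher (Igfbp3), near the shares of all genes.

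Of 39 interferon-response genes 10 were at least 2-fold lower, or 25.6% beside 5.99% of all genes, among them Gbp5 (650 and 183), Cxcl10 (113 and 46.9) and Mx2 (52.7 and 8.15), with a list median of -0.41. The proliferation medium of both lines contained γ-interferon, and the medians of the same genes were -0.56 at day 0 and -1.28 at day 2. No gene of 21 in the MHC class I list was past 2-fold, beside 5.13% higher and 5.99% lower of all genes. H2-Q9, which is not in that list, was past 2-fold higher, at 173 and 383. In the interferon-response list Irgm2 stood apart as the only gene past 2-fold higher, at 5.53 and 2013. In the antioxidant list of NRF2 targets, glutathione reductase Gsr (297 and 1206) and Nqo1 (210 and 457) were higher and the cystine carrier Slc7a11 (125 and 28.2) was lower. Of 28 p53 pathway genes 2 were past 2-fold lower and 2 higher, near the 5.99% and 5.13% of all genes. The lower genes were Pmaip1 (6763 and 2482) and Fas (888 and 373), and the higher ones Perp (33.9 and 72.7) and Igfbp3.

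Genes of the nuclear envelope and of HDAC3 corepressors held few differences past 2-fold. Apart from Emd none of 16 nuclear lamina and LEM-domain genes, 5 LINC complex genes and 16 HDAC3 corepressor genes was past 2-fold, beside 5.13% higher and 5.99% lower of all genes. At 1.5-fold, leaving Emd aside, 3 lamina, 1 LINC and 2 corepressor genes differed, where 11.4% of all genes were higher and 12.1% lower. Lmna was 20543 in wildtype and 18469 in S54F progenitors, Hdac3 was 1706 and 1847, and Lmnb1 had the highest log2 fold of the lamina list at 0.97. Sterol and fatty acid synthesis genes also held none past 2-fold, and respiratory chain subunits had 3 of 81.

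Genes were also grouped by their own course in wildtype progenitors between days 0 and 2, which uses no day 1 sample. The 1656 genes at least 2-fold higher at day 2 had a median day 1 log2 fold of -0.32, and 17.8% of them were at least 2-fold lower in S54F while 3.86% were higher. The 3046 genes at least 2-fold lower at day 2 had a median of 0.21, with 8.57% higher and 5.75% lower. The 8167 genes that differed by less than 2-fold had a median of -0.03, with 2.63% higher and 3.62% lower. For the 366 genes at least 8-fold higher at day 2 the median was -0.74 and 304 were below wildtype, and for the 504 genes at least 8-fold lower it was 0.48 and 396 were above wildtype.

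**Figure D5:**
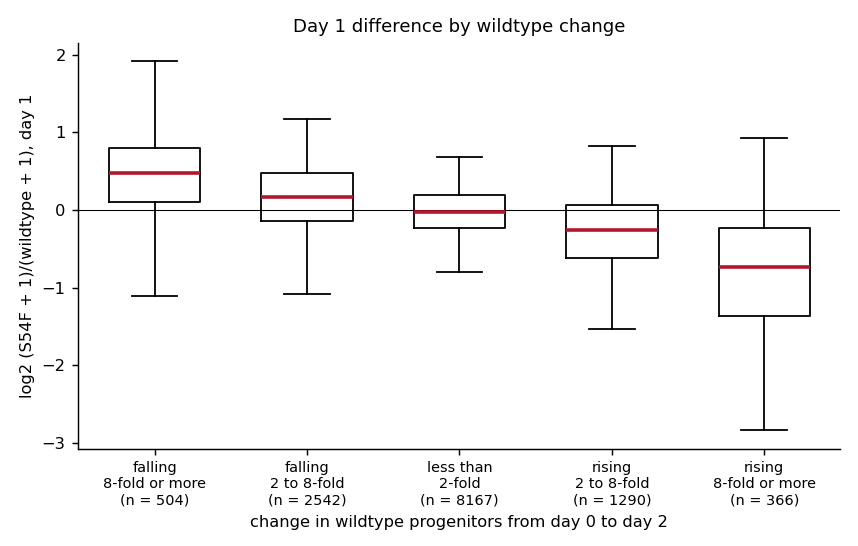
Day 1 log2 folds of S54F over wildtype (y) for genes grouped by their change in wildtype progenitors from day 0 to day 2 (x, with the number of genes); boxes are quartiles, red lines medians, and whiskers the 5th and 95th percentiles. Medians run from 0.48 in genes that were at least 8-fold lower at day 2 to -0.74 in genes at least 8-fold higher.

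Many other differences at day 1 were present on all days. Of the 674 higher genes listed on all days, 50% were also past 2-fold higher at day 0 and 59.3% at day 2, and 268 on all 3 days. Of the 786 lower genes, 49.6% were lower at day 0, 51.8% at day 2, and 268 on all 3 days. Opposite directions were seen at day 0 for 79 of the higher genes, of which 10 were not predicted genes, and at day 2 for 1. They were seen for 30 of the lower genes at day 0 and for 4 at day 2. Among the steadiest named genes, Steap1, a metalloreductase, was 16478 in wildtype and 533 in S54F progenitors at day 1 with log2 folds of -4.75, -4.95 and -6.21 on days 0, 1 and 2. Ptprm, a receptor phosphatase of cell contacts, was 3.51 and 295 with 6.02, 6.04 and 6.08. Kpna2, a nuclear import adaptor, was 90.5 and 5336 with 6.19, 5.87 and 5.18. Ankrd2, a titin-associated stretch-response protein, was 3464 and 37.4 with -5.69, -6.49 and -5.77.

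Several of the largest folds belong to genes with near-identical copies, between which reads can be split. Eno1b had a log2 fold of -8.05 (6067 and 21.96), but summed with Eno1 it was 0.09. Hmga1b was -3.37 alone and 1.09 summed with Hmga1, Ifi211 was 6.80 alone and 0.35 summed with Ifi204 and Mndal, and Pcdhga8 was 5.17 alone and 0.05 summed with the 19 listed genes that share its 3′ exons. For Rpl26, at 69.9 and 7146, and for Kpna2, the copies found in the annotation had no row in the table. Transcripts of Tmod1, Nid2 and Ccne2 share a stretch of at least 200 bases with those of Tstd2, Rtraf and Ints8. These partners were near equal in wildtype and S54F progenitors: Tstd2 at 900 and 899, Rtraf at 3229 and 3064, Ints8 at 2054 and 1968. Summed with their partners, Tmod1, Nid2 and Ccne2 had log2 folds of -0.83, -0.89 and 0.28, no longer past 2-fold. Eno1, the partner of Eno1b, was 31912 and 40318. Ccna2 had a log2 fold of 0.45 alone and 0.09 summed with Exosc9, which was 1970 and 1197. Splitting of reads was not tested for these pairs. The genes that share such stretches with Mybpc1, Cacna1s, Myh2, Colq, Adam12, Sfrp2 and Cdkn1c had no row in the table. Eif2s3y, on the Y chromosome, was 15.7 and 877, while the other Y-linked genes Ddx3y (1666 and 1249), Kdm5d (720 and 454) and Uty (727 and 485) were present in both lines.

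The other lines were compared at day 1 with the same wildtype samples, so their values are set side by side only. The median log2 fold of the 109 muscle genes was -0.55 in S54F, 0.16 in EMD-/y, -3.04 in Δ95–99, -3.90 in Q133H and -1.34 in +EMD progenitors, which carry wildtype emerin on the EMD-/y background. For the DNA replication and mitosis genes it was 0.55, 0.08, 0.92, 0.82 and 0.97 in the same order. Counts past 2-fold were 541 higher and 339 lower in EMD-/y, 1106 and 1510 in Δ95–99, 1207 and 1824 in Q133H, and 1099 and 1329 in +EMD progenitors. Cdkn1c was higher than wildtype by 2.70 in S54F, 2.80 in EMD-/y and 2.63 in +EMD progenitors, and Pax7 by 2.73, 2.64 and 3.77. For Δ95–99 and Q133H progenitors the Cdkn1c and Pax7 values are not given here, so these differences are not described as common to all lines. Actn2 had log2 folds of -1.97 in S54F, 0.64 in EMD-/y, -5.76 in Δ95–99, -6.45 in Q133H and -3.44 in +EMD progenitors.

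Markers of other cell types were low or present in both lines, though not always at like levels. The 6 epithelial markers summed to 21.8 in wildtype and 14.1 in S54F progenitors with none compared, and the 5 listed immune markers summed to 116 and 64.6. The 4 listed endothelial markers summed to 48.5 and 36.0, and the 7 listed fibroblast markers to 633 and 918. Adipocyte markers summed to 1270 and 760, mostly Lpl, and 1 of the 2 compared was past 2-fold lower. In the neural list only Tubb3 was compared, at 177 and 610, a log2 fold of 1.78. The smooth muscle list, 96671 and 78124, holds genes such as desmin that skeletal myoblasts express. Their part in the results was not tested.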

How the data were processed

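RNA from 3 labelled replicates of S54F and of wildtype progenitors at day 1 was compared, with tables of days 0 and 2, consecutive days and the other lines beside it (11 of 27 tables). Poly-A RNA was sequenced, SOAPnuke filtered the reads, HISAT2 mapped them to mm10, and groups were compared with DESeq2, per the paper's methods and the submitters' processing notes. The deposited signal values are normalized counts per gene and group that the authors made from the replicates; how replicates were combined is not given in the sources used here. The tables also hold the authors' fold changes, p-values, q-values and direction calls, which were not used. With 0 columns for single samples, the depth of each library is unknown. The tables were normalized separately.

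Folds were log2 ratios with a pseudocount of 1, over genes averaging at least 10. A fold of 2 counted as past the threshold, and the calculation was checked on simulated columns. Wildtype courses used parts per 1000000 of the column sum (ppm). Symbols matched 15953 of 15977 numbered genes (RefSeq, GRCm38.p6), and 1560 predicted genes have none. Copies were alignments of at least 200 bases and 97% identity (minimap2 2.31-r1302; GENCODE M21). Named genes were Emd, key muscle, cell cycle and matrix genes, up to 4 members of each list with the largest folds per direction, the 12 largest folds per direction averaging at least 100, and the 6 steadiest over the days. Other genes named were chosen after their values were seen. The comparison, lists and rules were chosen with earlier results of these data known. Python 3.11.15, numpy 2.4.6, pandas 2.3.3 and matplotlib 3.10.9 were used. Some genes are not reported here.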

Additional observations from a re-analysis of the deposited data

How the results depend on the processing

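The tables give 1 value per group, so no replicate could be left out and no interval could be given. No paired analysis was possible because the columns carry no replicate. The counts of genes at least 2-fold higher (678), lower (792) and past 2-fold in the same direction on all 3 days (536) stayed within 1.5 times under pseudocounts of 0.1 and 5, without a minimum, with equal column sums, centred on the median gene, and without predicted genes. With a minimum average of 100 they were 266, 369 and 237, since fewer genes are compared. With a fold threshold of 1.5 they were 1509, 1599 and 1048, and with one of 3 they were 347, 397 and 267. The 87 genes lower at day 1 only, a set added after seeing the data, became 135 without a minimum, 46 with a minimum average of 100, 433 at a threshold of 1.5, and 12 at 3. The median log2 folds of genes higher and lower at day 2 in wildtype moved by less than 0.1 under every alternative tried for them. Of the counts past 2-fold in single lists, 40 of 40 stayed within 1.5 times when centred on the median gene, 38 of 40 with equal column sums and with a pseudocount of 5, 26 of 40 with a minimum average of 100, and 10 of 40 at a threshold of 1.5. The summed copies above were also added after seeing the data.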
